A study of Mus musculus with 24 samples.

Results

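Basement membrane genes known for their high expression in parietal endoderm were followed in male mouse embryonic stem cell (mESC) lines during differentiation to neuromesodermal progenitors (NMPs). The set was given as a list of gene symbols and was found by matching each symbol to the gene names of the raw count table, which gave 9 genes of the 35591 measured. They were Col4a1 and Col4a2 (collagen IV), Lama1, Lamb1 and Lamc1 (laminin), Nid1 and Nid2 (nidogen), Hspg2 (perlecan) and Sparc (osteonectin). All 9 passed the filter on low counts in every comparison. RNA was measured in 24 libraries, from 3 Smchd1 fl/+ (wild-type, wt) and 3 Smchd1 del/+ (het) lines that were each sampled on days 0, 2, 2.5 and 3. The study compared the genotypes to ask what loss of the paternal Smchd1 allele alone does, since Smchd1 encodes a chromatin protein of gene silencing that the oocyte also supplies. Every line was an F1 hybrid of a Castaneus (Cast) Smchd1 +/+ mother and a C57BL/6 father of genotype Smchd1 del/fl carrying MMTV-Cre T/+, so wt lines held a floxed and het lines a deleted paternal allele. Whether a line inherited the Cre transgene is not given in the sources used here. Day 0 cells were in DMEM with serum and LIF, the cytokine that holds mESCs in self-renewal, and cells were plated on gelatin. Differentiation followed without LIF or serum, in N2B27 medium with the growth factor basic FGF. Wnt signalling was activated at day 2 by adding CHIR99021, so that days 2.5 and 3 came after activation. Cells for day 0 were seeded more densely than cells for the later days. A line came from a blastocyst of its own, and its 4 libraries are repeated measures of that line rather than further replicates.

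Basement membranes are thin sheets of extracellular matrix built from a laminin polymer and a collagen IV network that nidogens and perlecan join together. Primitive endoderm of the blastocyst gives rise to parietal endoderm, whose cells secrete Reichert's membrane, a thick basement membrane, and are a classical source of collagen IV, laminin, entactin (nidogen) and Sparc. Collagen IV, laminins and nidogens are also made by visceral endoderm, epiblast and many other tissues, so the genes do not mark parietal endoderm by themselves.

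The genes lie apart in the mouse genome except for the collagen IV pair. In the coordinates of the count table, which are those of GRCm38, Col4a1 (chr8:11198423-11312826, minus strand) and Col4a2 (chr8:11312805-11449287, plus strand) are divergent genes whose annotated first exons overlap by 22 bases. Lama1 is at chr17:67697259-67822647 (plus), Lamb1 at chr12:31265234-31329644 (plus) and Lamc1 at chr1:153218922-153332786 (minus). Nid1 is at chr13:13437551-13512269 (plus), Nid2 at chr14:19751265-19811787 (plus), Hspg2 at chr4:137468769-137570630 (plus) and Sparc at chr11:55394500-55423183 (minus). Exons of Nid2 overlap those of Rtraf on the opposite strand, and exons of Nid1 and Col4a2 overlap the antisense genes Gm48682 and Gm15419. Library kits were stranded or not, without a statement of which for each library, so the reads of these overlaps could not be told apart and the values of Nid2 in particular are uncertain to that extent.

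Promoters are shown for 3 members that behaved differently, Lamb1 and Nid1, which were called lower in het cells on day 2, and Hspg2, which was not. They are the RefSeq bases (GRCm38.p6, plus strand) that end just before the gene's start in the count table, with capitals marking GGGCGG (the GC box) and CCAAT (the CCAAT box) on either strand. Lamb1 is chr12:31265043-31265233, Nid1 is chr13:13437352-13437550 and Hspg2 is chr4:137468553-137468768.
Lamb1: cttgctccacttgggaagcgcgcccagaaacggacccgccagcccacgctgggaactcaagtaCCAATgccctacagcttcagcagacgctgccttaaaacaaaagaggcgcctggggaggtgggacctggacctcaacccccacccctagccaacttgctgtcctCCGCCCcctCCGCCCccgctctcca
Nid1: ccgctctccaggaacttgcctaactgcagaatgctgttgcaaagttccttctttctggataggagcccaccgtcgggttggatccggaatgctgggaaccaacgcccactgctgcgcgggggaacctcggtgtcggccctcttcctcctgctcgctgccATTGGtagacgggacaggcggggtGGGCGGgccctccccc
Hspg2: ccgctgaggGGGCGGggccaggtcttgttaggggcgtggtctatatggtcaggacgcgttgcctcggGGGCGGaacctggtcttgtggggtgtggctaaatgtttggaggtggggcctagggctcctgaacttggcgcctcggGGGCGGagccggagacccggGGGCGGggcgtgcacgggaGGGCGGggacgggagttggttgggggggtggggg
Hspg2 held 5 GC boxes and no CCAAT box, Lamb1 held 2 and 1, and Nid1 held 1 and 1. RefSeq promoters were found for 6 of the 9 members and not for Lama1, Lamc1 and Nid2. Over the 250 bases before the RefSeq start, Col4a2 had 2 GC boxes, Col4a1 and Sparc had 0, and the CCAAT box stood once each in Col4a1, Col4a2, Lamb1 and Nid1. GATAA (the core of the GATA motif) and ACAAT (the core of the SOX motif, which shares its last 4 letters with the CCAAT box) were searched in the same way and had 0 matches in all 6 members. Of 32817 RefSeq promoters of that length, 32.7% held GGGCGG, 33.8% CCAAT, 22.6% GATAA and 27.7% ACAAT on either strand. These matches describe letters in a window and say nothing of which factor binds there.

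Library totals ran from 7.10 to 20.8 M (mega) counts with a median of 17.9 M, and the smallest was wt day 2.5 line 2. The lowest member count in any library was 1036 (Nid1), so the spread between lines rather than counting set the precision. Smchd1 itself stood at 66.3%, 59.9%, 66.0% and 54.7% of its wt level in het lines on days 0, 2, 2.5 and 3, with every het library below every wt library on each day. Levels are given in counts per M counts (CPM) scaled by the composition factors of edgeR (TMM), and differences as log2 fold changes with standard errors (SE) from the edgeR quasi-likelihood test. A gene is called where its Benjamini-Hochberg adjusted p over all genes tested was under 0.05. The cells carried the markers of their labels. Pou5f1, a core pluripotency factor, stood at a wt mean of 1318 CPM on day 0 and 232 CPM on day 3, and T, a marker of NMPs and mesoderm, stood at 0.454 CPM on day 2 and 304 CPM on day 2.5.

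All 9 genes were expressed in undifferentiated cells, and together they took a larger share of the library on day 2. In wt lines 1, 2 and 3 their summed counts were 0.330%, 0.323% and 0.502% of the library on day 0 and 0.895%, 1.34% and 1.79% on day 2. In het lines the share was 0.213%, 0.277% and 0.261% on day 0 and 0.585%, 0.786% and 0.738% on day 2. Every het line thus stood below every wt line on both days, and the share was higher on day 2 than on day 0 in each of the 6 lines. On day 2.5 the shares were 0.619%, 1.00% and 1.59% in wt and 0.776%, 1.01% and 0.680% in het lines, and on day 3 they were 0.635%, 1.16% and 1.18% against 0.516%, 0.795% and 0.825%. On these later days the groups overlapped, with wt line 1 below every het line on day 2.5 and among them on day 3. These are levels in whole cultures, in which fewer cells of a type and less RNA per cell cannot be told apart.

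**Figure D1:**
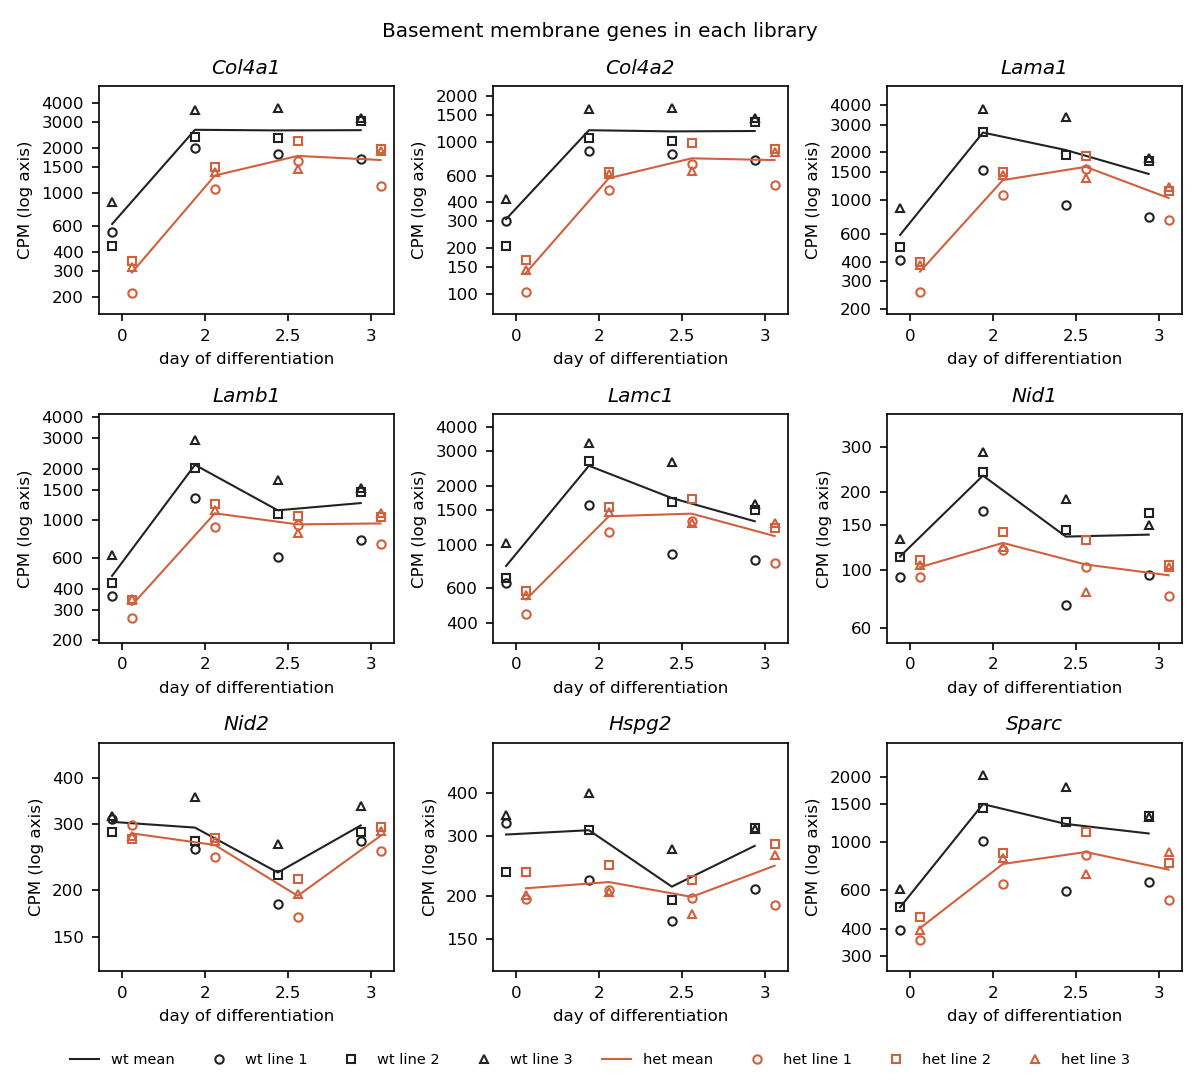
Level of each of the 9 genes in CPM (vertical axes, log scale) against day of differentiation, with 1 point for each of the 24 libraries. Point shapes mark the cell lines, and the joined line follows the mean of each genotype over the 4 days, wt and het in separate colours. In 7 panels the levels climb between days 0 and 2 in all 6 lines, whereas Nid2 and Hspg2 stay within 169 to 401 CPM throughout, and the het points lie under the wt points for most genes on day 2.

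Per length of exon, Sparc, the collagen IV pair and the laminin chains were more abundant than the linkers (nidogens and perlecan) on day 2, which did not hold for Nid2 on day 0. Among wt libraries on day 2 the mean levels were 395 CPM per kb of exon for Sparc, 356 for Col4a1, 307 for Lamc1, 277 for Lama1, 212 for Lamb1 and 179 for Col4a2. Nid2 followed with 56.8, Nid1 with 33.4 and Hspg2 with 21.8 CPM per kb. The upper neighbours did not differ beyond their spread between lines (SD 137 for Sparc, 111 for Col4a1, 104 for Lamc1 and 117 for Lama1, n = 3), whereas Nid2 and the genes below it stood far under all of them. On day 0 Sparc led as well, at 133 CPM per kb, and Nid1 was lowest at 16.3, while Nid2 (58.9) stood above Lamb1 (47.9) and Col4a2 (47.0). In het lines on day 0 Nid2, at 54.9 CPM per kb, came after Sparc (106) and Lamc1 (63.7) only. With the longest annotated transcript in place of merged exons, Lamb1 came to 363 CPM per kb on day 2 and passed Lamc1 (333) and Lama1 (281), so the order among the laminin chains depends on the length used.

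Col4a1 and Col4a2 encode the chains of the common collagen IV trimer. Col4a1 stood at 544, 438 and 876 CPM in wt lines 1, 2 and 3 on day 0 and at 214, 348 and 317 CPM in het lines. On day 2 it stood at 1999, 2382 and 3588 CPM in wt and at 1060, 1489 and 1384 CPM in het lines. The het lines were below the wt lines on both days without overlap. On day 2.5 the levels were 1829, 2333 and 3734 CPM in wt and 1631, 2246 and 1446 CPM in het lines, and on day 3 they were 1694, 3051 and 3181 against 1120, 1975 and 1903 CPM. On these days the groups overlapped, with wt line 1 below at least 1 het line. Col4a2 showed the same order of lines at a lower level, with 872, 1063 and 1628 CPM in wt and 482, 637 and 609 CPM in het lines on day 2.

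The collagen chains were lower in het cells on day 2, by log2 -1.03 for Col4a1 (SE 0.16, 95% interval -1.37 to -0.68, adjusted p = 0.0118) and -1.05 for Col4a2 (SE 0.17, adjusted p = 0.0118, edgeR). On day 0 the differences were of like size, log2 -1.09 for Col4a1 (SE 0.21) and -1.18 for Col4a2 (SE 0.21), but neither was called (adjusted p = 0.334 for both, edgeR). On days 2.5 and 3 they were -0.57 and -0.67 for Col4a1 and -0.58 and -0.64 for Col4a2, and none of these was called. Both genes lie on chromosome 8, whose 670 tested genes had a median log2 ratio to the other lines of 0.22 in wt line 1 and of -0.08 to 0.03 in the other 5 lines. Its part in the collagen IV values was not tested. The pair kept a steady ratio, since Col4a1 per length was 1.95 ± 0.10 times Col4a2 over the 24 libraries (SD, range 1.60 to 2.07), with the lowest value in a wt day 0 library.

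Lama1, Lamb1 and Lamc1 encode the chains of laminin-111, the first laminin of the embryo. On day 2 Lama1 stood at 1533, 2709 and 3790 CPM in wt lines 1, 2 and 3 and at 1067, 1502 and 1424 CPM in het lines. Lamb1 stood at 1346, 2006 and 2949 CPM against 915, 1237 and 1141 CPM, and Lamc1 at 1606, 2691 and 3314 CPM against 1172, 1566 and 1470 CPM. For each chain the lowest wt library, line 1, lay above the highest het library. All 3 chains were called lower in het cells, by log2 -1.02 for Lama1 (SE 0.21, adjusted p = 0.0453), -0.94 for Lamb1 (SE 0.19, adjusted p = 0.0352) and -0.86 for Lamc1 (SE 0.18, adjusted p = 0.0425, edgeR). On day 0 the 3 differences lay between log2 -0.79 and -0.58, on day 2.5 between -0.36 and -0.26 and on day 3 between -0.52 and -0.26, and none was called.

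On day 2.5 Lama1 ran from 928 CPM in wt line 1 to 3362 CPM in wt line 3 and from 1383 to 1901 CPM in het lines, so that the het range lay inside the wt range. The difference turned to log2 0.19 when wt day 2.5 line 3 was left out, as it did for Lamb1 (0.16), Lamc1 (0.19) and Hspg2 (0.14). The day 2.5 difference in these genes therefore has no fixed direction. The ratio of Lama1 to Lamb1 was highest on that day. Over merged exons Lama1 per length was 1.78 ± 0.22 times Lamb1 in wt and 1.74 ± 0.08 times in het lines on day 2.5 (SD, n = 3), against means of 1.09 to 1.29 in the groups of the other days. With the longest transcript as the length it was 1.06 and 1.03 on day 2.5 and 0.644 to 0.764 on the other days, so the rank of the chains depends on the length and the higher ratio on day 2.5 does not.

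Nid1 and Nid2 encode the nidogens, which bind laminin and collagen IV, and they behaved differently. Nid1 stood at 94.4, 112 and 132 CPM in wt and 94.1, 110 and 105 CPM in het lines on day 0, and at 170, 240 and 285 CPM against 120, 140 and 123 CPM on day 2. The groups overlapped on day 0 and stood apart on day 2. Nid1 was called lower in het cells on day 2 (log2 -0.87, SE 0.14, adjusted p = 0.0129, edgeR) and had a log2 difference of -0.15 (SE 0.11) on day 0, -0.35 on day 2.5 and -0.53 on day 3. Nid2 stood at 257, 271 and 355 CPM in wt and 246, 275 and 271 CPM in het lines on day 2, and was not called on any day, with differences of log2 -0.12, -0.16, -0.21 and -0.10 on days 0, 2, 2.5 and 3. Its 95% interval on day 2 was log2 -0.40 to 0.08. On day 2 Nid1 per length was 0.584 ± 0.085 times Nid2 in wt and 0.360 ± 0.021 times in het lines (SD, n = 3) without overlap, which in an exact two-sided permutation test gave p = 0.1, the smallest that 3 against 3 can give. Of the 20 ratio tests run (5 pairs on 4 days), Col4a1 to Col4a2 and Lamb1 to Lamc1 on day 3 had the same p and no overlap either.

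Hspg2 encodes perlecan, the heparan sulphate proteoglycan of basement membranes. Its levels were 328, 236 and 345 CPM in wt and 196, 236 and 201 CPM in het lines on day 0 and 223, 311 and 401 CPM against 208, 246 and 205 CPM on day 2. The groups stood apart by less than 1 CPM on day 0 and overlapped on day 2. Hspg2 was not called, with a log2 difference of -0.54 (SE 0.13, adjusted p = 0.334) on day 0 and -0.51 (SE 0.15, adjusted p = 0.198, edgeR) on day 2. Sparc encodes a matrix glycoprotein that binds collagen IV. It stood at 396, 501 and 610 CPM in wt and 357, 455 and 396 CPM in het lines on day 0, and at 1014, 1429 and 2046 CPM against 645, 892 and 845 CPM on day 2. The groups overlapped on day 0 and did not on day 2, when Sparc was called lower in het cells (log2 -0.92, SE 0.18, adjusted p = 0.0276, edgeR). Its log2 difference was -0.33 on day 0, -0.43 on day 2.5 and -0.56 on day 3.

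Over the set, 7 of 9 members were called lower in het than in wt cells on day 2, where 0.500% of the 15414 genes tested were (77 genes). By the DESeq2 Wald test 3 members were called lower beside 1.19% of all genes, and by the edgeR exact test 7 beside 1.33%. On day 0, 0 members were called and 0% of all genes were called lower by edgeR, with 7 members at an unadjusted p under 0.05 beside 10.9% of all genes. There the Wald test called 1 member lower (0.311% of all genes) and the exact test 3 (0.165%). On day 2.5, 0 were called, again beside 0% of all genes, with 2 members at an unadjusted p under 0.05 (5.27% of all genes) and 0 called by the Wald test (0.0128%) and by the exact test (0.0257%). On day 3, 0 were called beside 0.00638% of all genes (1 gene), with 4 at an unadjusted p under 0.05 (9.13%) and 0 by the Wald (0.281%) or the exact test (0.287%). When the 4 libraries of a line were added together, 0 members were called beside 0.00544% of all genes (1 gene), with 8 at an unadjusted p under 0.05 (9.05%), 0 by the Wald test (0.468%) and 1 by the exact test (0.365%). The median member difference was log2 -0.58, -0.92, -0.35 and -0.52 on days 0, 2, 2.5 and 3, while the median over all genes tested was near 0.

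All het libraries lay below all wt libraries for 6 members on day 0 and 7 on day 2, against 7.28% and 7.91% of all genes tested. They did so for 0 members on day 2.5 and 0 on day 3, against 5.20% and 5.60% of all genes. The day 2 calls depended on the libraries included, as did the count over all genes given with the processing. Of the members, 8 were called without wt day 2 line 1, 5 without wt day 2 line 2 and 2 without wt day 2 line 3, the line with the highest levels. Without het day 2 line 1, 2 or 3 in turn 0 were called each time. One fit of all 24 libraries also called 0 and the DESeq2 Wald test 3, while each of the 9 log2 differences on day 2 was negative under every setting tried, with Col4a1 between -1.20 and -0.74.

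**Figure D2:**
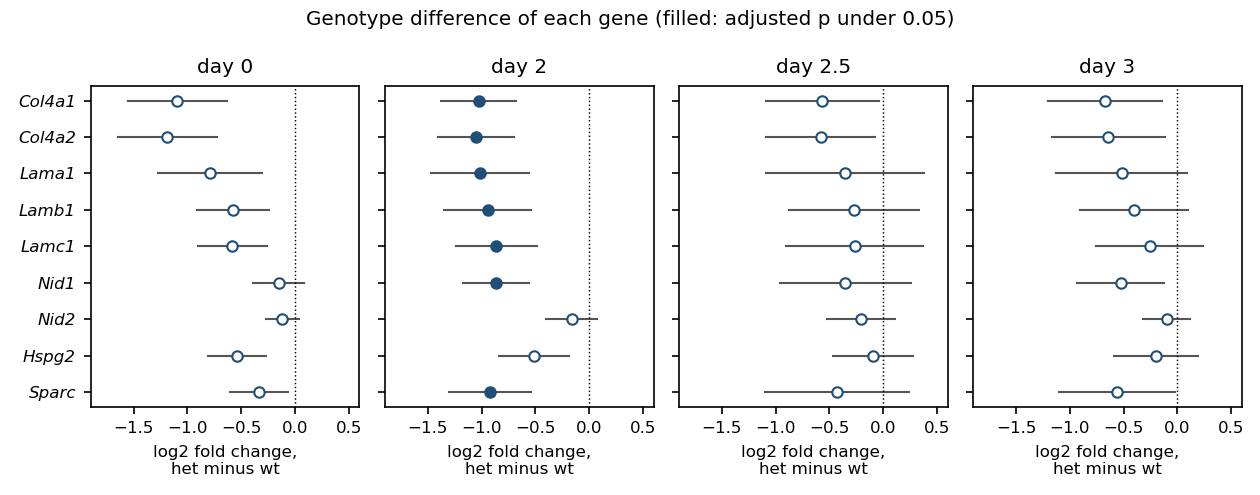
Log2 fold change of het against wt (horizontal axis) with its 95% interval for each of the 9 genes on each of the 4 days, from the edgeR quasi-likelihood test on 3 against 3 libraries, with filled points for called genes. The 7 called points are all on day 2, where Nid2, at -0.16, lies nearest to 0.

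Between day 0 and day 2, 7 of the 9 genes rose in both genotypes. LIF and serum were withdrawn, basic FGF was added and the seeding density differed between these days, and these changes cannot be told apart. In wt lines the log2 rise from day 0 to day 2 was 2.11 for Col4a1 (SE 0.23), 1.94 for Col4a2 (0.23), 2.18 for Lama1 (0.29), 2.15 for Lamb1 (0.24), 1.71 for Lamc1 (0.22), 1.58 for Sparc (0.20) and 1.04 for Nid1 (0.17). The largest adjusted p among these was 0.000178 (Nid1, edgeR), and Nid2 (-0.04) and Hspg2 (0.05) were not called. So 7 of 9 members rose and 0 fell, where 22.4% of all genes tested rose and 21.9% fell. In het lines the same 7 rose, by log2 2.17 for Col4a1, 2.07 for Col4a2, 1.95 for Lama1, 1.78 for Lamb1, 1.42 for Lamc1, 0.99 for Sparc and 0.32 for Nid1 (SE 0.08, adjusted p = 0.00397, edgeR), where 28.0% of all genes rose and 28.1% fell. One fit of all 24 libraries did not call Nid1 in het lines (adjusted p = 0.284, edgeR). Nid2 (-0.09) and Hspg2 (0.07) were again not called.

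Whether this step differed between genotypes was tested as an interaction. It was called for 0 members and for 0% of all genes by edgeR, with 1034 genes and 2 members at an unadjusted p under 0.05, and the DESeq2 Wald test called 6 genes, with 0 members among them. With the line number as a block 2 genes were called, neither a member. The 2 members were Nid1, whose rise was log2 -0.72 apart (het minus wt, SE 0.20, 95% interval -1.14 to -0.29, adjusted p = 0.754), and Sparc (het minus wt -0.59, SE 0.25, adjusted p = 0.778, edgeR). For Col4a1 the interval of the difference in step was log2 -0.57 to 0.70, which holds 0 and differences of moderate size in either direction.

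After Wnt activation, from day 2 to day 2.5, the log2 difference was negative for all 9 members in wt lines, but its sign was not stable for Col4a1 (-0.016), Col4a2 (-0.028) and Sparc (-0.30), which ran from -0.35 to 0.26, -0.36 to 0.26 and -0.70 to 0.026 with a library left out. Lamb1 (log2 -0.88, SE 0.31, adjusted p = 0.0453) and Nid1 (-0.78, SE 0.26, adjusted p = 0.0397, edgeR) fell, 2 of 9, where 14.5% of all genes fell and 14.6% rose. Both days came from the same lines, and with the line as a block, under which 15.6% of all genes fell, 7 members fell, namely Lamb1 (-0.93), Nid1 (-0.85), Lamc1 (-0.62), Hspg2 (-0.54), Lama1 (-0.47), Nid2 (-0.41) and Sparc (-0.39), while Col4a1 and Col4a2 were at -0.04 each. Lamb1 was 1346, 2006 and 2949 CPM in wt lines 1, 2 and 3 on day 2 and 611, 1094 and 1723 CPM on day 2.5, lower in each line. The unblocked count was 0 without wt day 2 line 2 or 3 or wt day 2.5 line 1 or 2, 3 without wt day 2 line 1 and 6 without wt day 2.5 line 3.

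In het lines the same step brought a rise of Col4a1 (log2 0.42, SE 0.15, adjusted p = 0.0332) and Col4a2 (0.42, SE 0.14, adjusted p = 0.0265) and a fall of Nid2 (-0.47, SE 0.09, adjusted p = 0.000882, edgeR). That is 2 of 9 higher and 1 lower, where 21.8% of all genes rose and 22.9% fell. The members' count is thus close to the share of all genes for the rise and below it for the fall. With the line as a block 5 were called, 3 higher (Col4a1 0.41, Col4a2 0.40 and Lama1 0.26) and 2 lower (Nid2 -0.48 and Nid1 -0.32), beside 21.5% and 22.1% of all genes. The collagen calls were lost without het day 2 line 1 (0 higher, 2 lower) and without het day 2.5 line 2 (0 higher, 3 lower), and also by the DESeq2 Wald test and in one fit of all libraries (0 higher and 1 lower in both), and 5 members were called without het day 2.5 line 3. The interaction of genotype with this step was called for 0 members and 0% of all genes, with 0 members and 850 genes at an unadjusted p under 0.05 and 0 genes by the DESeq2 Wald test. With the line as a block every member but Nid2 had an unadjusted p under 0.05, and again none was called. The smallest was that of Lamb1 (het minus wt log2 0.71, unadjusted p = 0.000115, adjusted p = 0.272, edgeR).

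From day 2.5 to day 3 in wt lines 0 members were called by edgeR, where 8.99% of all genes rose and 10.1% fell, with 1 (Nid2, log2 0.42) at an unadjusted p under 0.05 beside 33.9% of all genes, and 1 called higher by both the DESeq2 Wald and the edgeR exact test beside 11.5% of all genes in each. With the line as a block, Nid2 (0.44) and Hspg2 (0.40) rose and Lama1 (-0.42) and Lamc1 (-0.31) fell, where 15.3% of all genes rose and 15.4% fell, and without wt day 2.5 line 3 the unblocked test called 2, both higher. In het lines Nid2 rose (log2 0.51, SE 0.10, adjusted p = 0.00278) and Lama1 fell (-0.69, SE 0.17, adjusted p = 0.0103, edgeR), where 13.8% of all genes rose and 16.0% fell. Both counts are thus close to the share of all genes. With the line as a block Lamc1 fell in het lines too (-0.42, adjusted p = 0.0361, edgeR), where 16.5% of all genes fell, which made 3 called members. Nid2 thus went from 246, 275 and 271 CPM on day 2 to 170, 214 and 196 CPM on day 2.5 and back to 255, 296 and 287 CPM on day 3 in het lines 1, 2 and 3. Wt lines took the same course, with 257, 271 and 355, then 183, 219 and 266, then 270, 287 and 337 CPM. Every line was lowest on day 2.5. The third interaction was called for 0 members and 0% of all genes, with 0 members and 635 genes at an unadjusted p under 0.05 and 0 members by the DESeq2 Wald test.

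**Figure D3:**
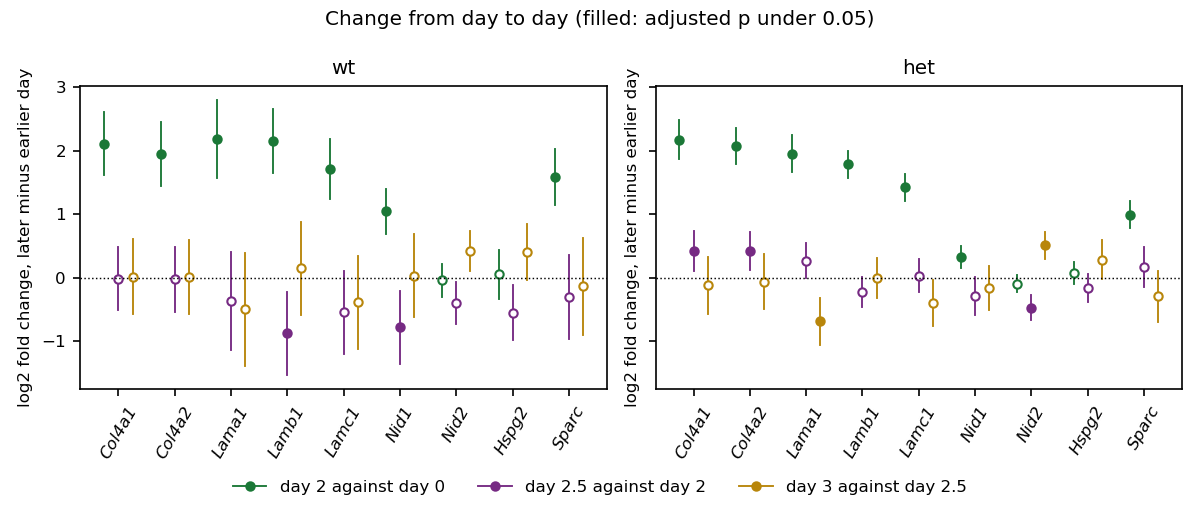
Log2 fold change of each of the 9 genes over each step of the differentiation (day 2 against 0, 2.5 against 2, 3 against 2.5) with its 95% interval. Wt and het are in separate panels and the steps in separate colours. Values are from the edgeR quasi-likelihood test without the line as a block. Col4a1, Col4a2 and the laminin chains rise by 1.42 to 2.18 on the log2 scale in the first step and change less in later steps, whereas Nid2 and Hspg2 lie within -0.09 to 0.07 in the first step, and in wt lines move to -0.40 and -0.55 in the second step and to 0.42 and 0.40 in the third.

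Members deviated together within a group, though the order of close lines varied. On wt day 0, for example, line 1 was above line 2 for Col4a1 (544 against 438 CPM) and below it for Lama1 (409 against 498 CPM). Deviations of log2 CPM from the mean of each group of 3 were correlated between members over the 24 libraries, which share cultures, depth and scaling factors, so the values are given as a description only. Among the 28 pairs without Nid2 the Pearson r ran from 0.807 to 0.994 with a median of 0.912, highest for Lama1 with Lamb1 (0.994) and Col4a1 with Col4a2 (0.993). The 8 pairs of Nid2 ran from 0.729 to 0.804. Averaged over the 9 genes, wt line 3 was the highest wt line on every day, by log2 0.38, 0.46, 0.60 and 0.30 above its group mean on days 0, 2, 2.5 and 3. Wt line 1 was the lowest on days 2, 2.5 and 3, at -0.46, -0.63 and -0.54. Het lines lay closer together, from -0.38 (line 1, day 3) to 0.26 (line 2, day 2.5).

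The 10 other genes whose deviations were most like the members' mean, of 12448 with a mean of at least 50 counts, were Ctsl (r = 0.976), Pth1r (0.976), Lrpap1 (0.975), Cemip (0.969), Lgmn (0.965), Hs3st1 (0.964), Kdelr3 (0.958), Me1 (0.954), Ggta1 (0.951) and Cubn (0.945), over the same 24 libraries in 8 groups. Ctsl and Lgmn encode lysosomal proteases, Pth1r the receptor of parathyroid hormone-related protein, and Cubn the endocytic receptor cubilin. On day 2 Pth1r (log2 -1.17), Hs3st1 (-1.13), Kdelr3 (-0.95), Ggta1 (-0.84), Cubn (-1.07) and Lgmn were called lower in het cells, where 0.500% of all genes tested were. Ctsl (-0.37, adjusted p = 0.187), Lrpap1 (-0.41, adjusted p = 0.212), Cemip (-1.20, adjusted p = 0.0812) and Me1 (-0.66, adjusted p = 0.0616, edgeR) were not. No gene at all was called in some fits with a replicate left out, so these calls were lost there too.

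Markers of endoderm moved with the members, and a list of 9 genes of primitive and parietal endoderm was lower in het cells on day 2 for 7 of its genes (median log2 -1.17), where 0.500% of all genes tested were called lower and their median was log2 0.0018. Among them were Sox7 (log2 -1.52, SE 0.22, adjusted p = 0.00971) and Gata4 (-1.06, SE 0.18, adjusted p = 0.0170), transcription factors of primitive endoderm, and Pth1r (-1.17, SE 0.20, adjusted p = 0.0136, edgeR). The pair not called, named here after their values were seen, was Gata6 (-0.88, adjusted p = 0.0509) and Thbd (-1.78, adjusted p = 0.246). The 7 calls fell to 0 without het day 2 line 1, het day 2 line 3 or wt day 2 line 3, and to 1 without het day 2 line 2 and in one fit of all libraries. All 9 markers were detected but at far lower levels than the members. Their summed level ran from 145 to 264 CPM in wt and from 84.9 to 130 CPM in het libraries on day 0, and from 304 to 536 against 181 to 232 CPM on day 2. On day 2.5 the ranges were 287 to 841 and 320 to 471 CPM, and on day 3 they were 326 to 632 and 237 to 387 CPM. As for the members, the groups stood apart on days 0 and 2 and overlapped later.

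The members' summed level in het cells was 65.6%, 52.8%, 75.6% and 71.2% of that in wt cells on days 0, 2, 2.5 and 3, and that of the primitive and parietal endoderm markers was 58.7%, 46.5%, 69.6% and 61.8%. Over the 24 libraries the log2 sums of both lists had a Pearson r of 0.930 and a Spearman rho of 0.905, and within each day r was 0.963 to 0.997 over 6 libraries, a description of libraries that share lines and depth. Per CPM of marker, the members gave 29.9 ± 4.2 CPM in wt and 34.1 ± 2.9 CPM in het lines on day 2, and 18.4 ± 0.2 and 21.2 ± 0.9 CPM on day 3 (SD, n = 3). The lower member levels in het cells thus came with lower marker levels in the same libraries, and the part of the markers' cells in the result was not tested. The summed level of 12 visceral endoderm markers in het cells was 60.3%, 53.9%, 69.8% and 53.6% of wt on the 4 days. Its groups stood apart on days 0 and 2 and overlapped on day 2.5 (534 to 1681 CPM in wt and 673 to 956 CPM in het lines) and day 3 (657 to 1298 and 410 to 703 CPM). Of the 9 tested, 3 were called lower on day 2 (Dab2, Cubn and Amn, proteins of endocytosis), while 2 had a positive difference on day 2 and 4 on day 0. These calls too were 0 without any one het day 2 line, without wt day 2 line 3 and in one fit of all libraries. The defining visceral endoderm genes Afp, Ttr and Apoa1 had at most 12, 22 and 13 counts in any library.

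**Figure D4:**
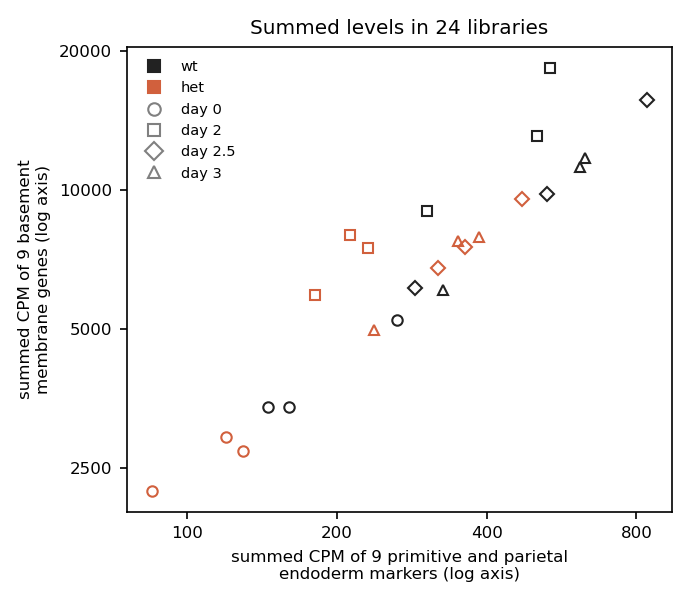
Summed level of the 9 basement membrane genes (vertical axis, CPM, log scale) against that of the 9 primitive and parietal endoderm markers (horizontal axis, CPM, log scale), with 1 point for each of the 24 libraries, coloured by genotype and shaped by day. Points of a day lie along a rising line, with the het libraries of days 0 and 2 at the lower left of the wt libraries of the same day.

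Few markers of other cell types were called between genotypes on day 2. Of the fibroblast list 0 of 6 tested genes were called by edgeR, of the trophoblast list 0 of 4, of the pluripotency and epiblast list 0 of 7 and of the neuromesodermal list 0 of 4, where 85 of the 15414 genes tested were called in either direction. At an unadjusted p under 0.05 the counts were 1, 0, 1 and 0, and the DESeq2 Wald test and the edgeR exact test each called 0 in all of these lists. The differences of the pluripotency and epiblast genes were positive for all 7 on day 2 (median log2 0.09), when their summed level was 2053 to 2218 CPM in wt and 2243 to 2338 CPM in het lines without overlap. They were positive for all 7 on day 3 as well (median 0.52), with sums of 381 to 552 and 533 to 751 CPM, and for 4 and 2 of 7 on days 0 and 2.5. The part of these genes' cells in the members' result was not tested. Fibroblast markers summed to 11.8 to 65.6 CPM over all libraries, with Lum and Postn at no more than 26 and 31 counts, while the members summed to 2236 to 18356 CPM. Of the endothelial list Cdh5, an endothelial cadherin, was called lower (log2 -0.89, adjusted p = 0.0192, edgeR), 1 of 4 tested, a call lost without any one het day 2 line, without wt day 2 line 3 and in one fit of all libraries, and Emcn had at most 3 counts in any library. The endothelial list had a median of log2 -0.65 with 3 of 4 negative, and its 5 genes summed to 76.1 to 94.3 CPM in wt and 71.0 to 74.7 CPM in het lines on day 2 without overlap. Its het level was 120%, 87.3%, 88.3% and 74.8% of wt on days 0, 2, 2.5 and 3, and its part in the members' result was not tested.

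Part of the genes that process collagen were lower in het cells too. Of 15 genes for hydroxylation, folding, glycosylation, export and cross-linking of collagen, 5 were called lower in het cells on day 2, beside 0.500% of all genes. The count was 10 by the DESeq2 Wald and 8 by the edgeR exact test, and 11 both without wt day 2 line 1 and with no filter on low counts. It was 0 without any one het day 2 line, without wt day 2 line 3 or in one fit of all libraries. The log2 difference was negative for all 15 with a median of -0.53, beside the median over all genes of 0.0018. The called genes included Loxl2, a lysyl oxidase (-0.86, SE 0.14, adjusted p = 0.0118), Plod2, a lysyl hydroxylase (-0.53, SE 0.09, adjusted p = 0.0157), and P4ha1, a prolyl hydroxylase subunit (-0.64, SE 0.12, adjusted p = 0.0226, edgeR). From day 0 to day 2, 11 of the 15 rose and 1 fell in wt lines, and 10 rose and 4 fell in het lines, where 22.4% of all genes rose and 21.9% fell in wt and 28.0% rose and 28.1% fell in het lines. The 4 that fell in het lines are thus close to the share of all genes. P4ha1 rose by log2 2.51 (SE 0.18), Plod2 by 1.77 (SE 0.14) and Serpinh1, the collagen chaperone, by 1.65 (SE 0.16) in wt lines.

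Most other basement membrane genes were not called between genotypes. Of a list of 29 further components, 19 could be tested on day 2, of which 2 were called lower in het cells and 0 higher by edgeR, 7 had an unadjusted p under 0.05, and 2 were called higher by each of the DESeq2 Wald and edgeR exact tests, with 12 positive and 7 negative differences. The list's median, log2 0.24, thus had the opposite sign to its calls, which stood beside 0.500% of all genes called lower and were Lama4, a laminin alpha chain of vessels (-1.31, SE 0.27, adjusted p = 0.0447), and Tinagl1, a matrix glycoprotein (-1.16, SE 0.25, adjusted p = 0.0485, edgeR), both lost without any one het day 2 line, without wt day 2 line 3 and in one fit of all libraries. The list summed to 776 to 978 CPM in wt and 892 to 921 CPM in het libraries on day 2, and over the 4 days its het level was 91.2% to 104% of wt. Between days 0 and 2 in wt lines 6 of 18 tested rose, among them Tinagl1 (log2 2.76) and Lama4 (2.39), and 7 fell, among them Ntn1 (-2.10) and Lama3 (-1.48), beside 22.4% and 21.9% of all genes. Receptors of basement membrane showed 0 of 9 called by edgeR on day 2 and by the DESeq2 Wald and exact tests, with 3 at an unadjusted p under 0.05 and summed levels at 96.4% to 113% of the wt level over the days. In the first step of wt lines, 2 of 9 receptors rose, namely Itgb1 (log2 0.92), the beta subunit of laminin-binding integrins, and Itga6 (0.60), while 5 fell, among them Bcam (-2.10). Over all genes 22.4% rose and 21.9% fell in this step, so the receptors that rose were close to the share of all genes.

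**Figure D5:**
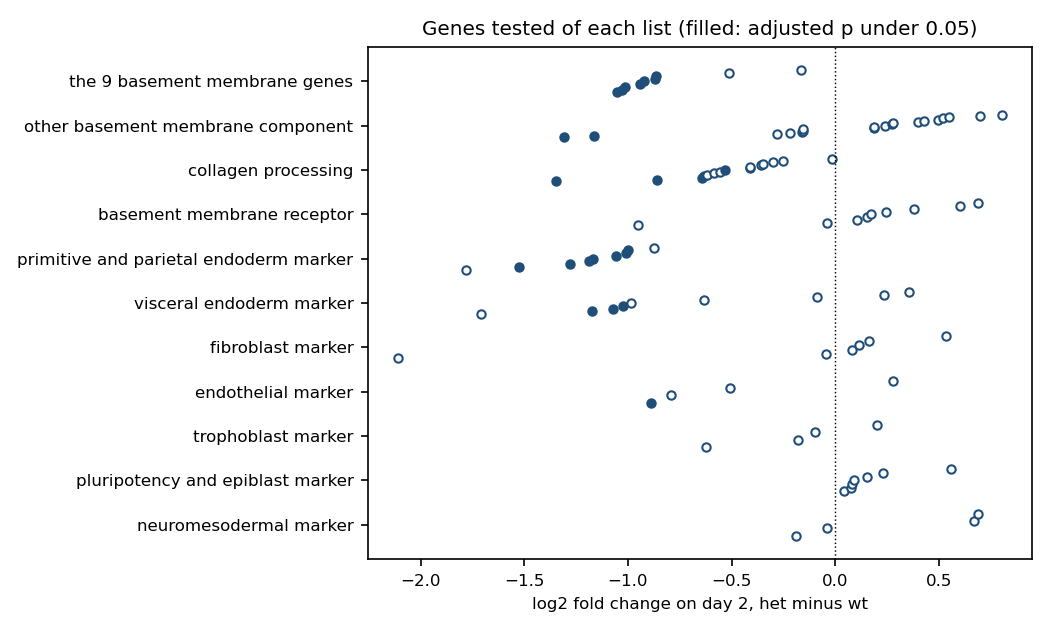
Log2 fold change of het against wt on day 2 (horizontal axis, edgeR) for each tested gene, 1 row of points for each gene list, with filled points for called genes and a dotted line at 0. The members, the primitive and parietal endoderm markers and the collagen processing genes lie left of 0, with medians of -0.92, -1.17 and -0.53, while other basement membrane components and receptors have medians of 0.24 and 0.17.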

How the data were processed

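Poly(A) RNA was sequenced by the authors, who, per the labels and the study's methods, trimmed reads with Trim Galore 0.4.4, aligned them with HISAT2 2.0.5 to GRCm38.p6 and quantified genes in SeqMonk. The deposited table holds raw counts per gene and library, with no normalization, and 8 columns of group means that were not used. All library columns were matched to labels by title. Whether the kit was stranded in a given library, and how overlapping genes were counted, is not given in the sources used here.

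The raw counts were tested with edgeR 4.0.16 under R 4.3.3 (TMM factors, filterByExpr by group, quasi-likelihood test, Benjamini-Hochberg adjustment over all genes tested, threshold 0.05). Genotypes were compared on each day with 3 libraries against 3 and on counts summed by line, steps within each genotype, and interactions over 12 libraries, 14 comparisons in all. SEs are the log2 fold change divided by the square root of F. CPM were scaled by TMM factors, and log2 CPM used a pseudocount of 0.5. Levels per length used merged exons of the GENCODE annotation. The 9 members, the gene lists and the tests were chosen with earlier results of these data known. All members are named, at most 3 genes of each other list in each direction by smallest adjusted p, and the 10 genes most like the members' mean deviation. Any other gene was named after its values were seen. Lists are described by counts and medians, without a test of the list.

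Libraries of a line on different days are paired by the labels. Deviations of paired libraries from their group means correlated over genes with r between -0.11 and 0.50. A number shared by a wt and a het line does not pair them.

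The comparisons were also computed with each replicate left out, with the line number as a block, in one fit of all libraries, by the exact test of edgeR and the Wald test of DESeq2 1.42.0, with every gene of at least 1 count, and with scaling by library totals or by DESeq2 size factors. The exact test was not run for the interactions, nor the fit of all libraries for the summed counts. On data simulated for the day 2 genotype comparison (15051 genes), the test called 76% of genes changed 0.5-fold, 48% of those changed 0.67-fold and 0.0539% of unchanged genes, and the interaction of the first step (15932 genes) called 60% and 18%. Plots were made in matplotlib 3.10.9 (Python 3.11.15).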

Additional observations from a re-analysis of the deposited data

How the results depend on the processing

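DESeq2 size factors and library totals alone kept every direction of the members' genotype differences on each day, and the day 2 count under either stayed within 1.5 times of 7. Members called in the genotype comparisons were 7 (day 0), 2 (day 2.5), 4 (day 3) and 6 (summed) with no filter on low counts, 1 on day 0 and 3 on day 2 with the DESeq2 Wald test, 3 on day 0 and 1 summed with the edgeR exact test, and 0 on day 2 in one fit of all libraries. With the shared line number as a block they were 5 on day 0, 3 on day 3 and 2 summed. That block pairs wt and het lines of the same number in the model, although these are unrelated lines, so the pairing is arbitrary. For the steps, wt day 2.5 against 2 gave 1 with library totals, 7 with no filter, 4 in one fit and 7 with the line as a block. Wt day 3 against 2.5 gave 1 with library totals, 2 with no filter, 1 with the Wald test, 1 with the exact test, 1 in one fit and 4 with the block. Het day 2.5 against 2 gave 6 with no filter, 1 with the Wald test, 1 in one fit and 5 with the block, and het day 3 against 2.5 gave 4 with no filter and 1 in one fit. The first and second interactions gave 2 and 3 with no filter. The cause of these changes was not tested. The block moved no other count of member calls by more than 1.5 times.

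Leaving out each replicate in turn gave 0 to 6 members on day 0 (6 without wt line 1 and 3 without wt line 2), 0 to 8 on day 2, 0 to 1 on day 3 (1 without wt line 1), 0 to 8 summed (8 without wt line 1), 0 to 6 for wt day 2.5 against 2, 0 to 2 for wt day 3 against 2.5, 2 to 5 for het day 2.5 against 2 and 2 to 3 for het day 3 against 2.5. A group left with 2 libraries was assumed to vary like the other. Log2 differences that changed sign on day 2.5 ran from -0.72 to 0.19 (Lama1), -0.58 to 0.16 (Lamb1), -0.59 to 0.19 (Lamc1) and -0.26 to 0.14 (Hspg2). In the first step Nid2 ran from -0.20 to 0.038 and Hspg2 from -0.18 to 0.23 in wt, and Hspg2 from -0.022 to 0.15 in het lines. For wt day 2.5 against 2 the ranges were -0.35 to 0.26 (Col4a1, 0.017 with library totals), -0.36 to 0.26 (Col4a2, 0.0054 with library totals) and -0.70 to 0.026 (Sparc). For wt day 3 against 2.5 they were -0.20 to 0.35 (Col4a1), -0.19 to 0.35 (Col4a2), -0.86 to 0.037 (Lama1), -0.16 to 0.57 (Lamb1), -0.71 to 0.053 (Lamc1), -0.28 to 0.36 (Nid1) and -0.47 to 0.26 (Sparc). For het day 2.5 against 2 they were -0.13 to 0.12 (Lamc1) and -0.021 to 0.32 (Sparc), and for het day 3 against 2.5 -0.26 to 0.10 (Col4a1), -0.21 to 0.14 (Col4a2), -0.30 to 0.025 (Nid1) and -0.12 to 0.15 (Lamb1). Lamb1 was there at 0.014 with DESeq2 size factors, 0.022 with library totals, 0.026 with no filter, 0.014 with the Wald test and 0.018 in one fit. The first interaction of Col4a1 ran from -0.29 to 0.33. Over all genes, the day 2 count of 85 was 234 with the Wald test, 249 with the exact test, 384 with no filter, 23 in one fit and 0 to 211 with a replicate left out. On day 0 it was 0, against 84, 48 and 369 with the first 3 of these and 25 with the block, and 0 to 68 with a replicate left out (68 without wt line 2, 35 without wt line 1). On day 3 it was 1, against 116, 129, 274 and 100, and 0 to 93 (93 without wt line 1). On day 2.5 it was 0, against 3, 11 and 87, and 0 to 3 (3 without het line 3). Summed over days it was 1, against 145, 115, 190 and 50, and 404 without wt line 1. For wt day 3 against 2.5 the block raised 2923 to 4687, the interactions gave 58, 33 and 23 with no filter, and the first gave 2 with the block.

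With 3 lines a genotype, the p-values of the genotype comparisons set a difference against the spread between lines, estimated with help from all genes. The tests of steps without the line as a block treat libraries of a line as independent. The line effect and the genotype are separate only as far as 3 lines show, and reads over overlapping genes could not be assigned by strand.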
